A study of Mus musculus with 6 samples.

Results

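Hormone receptors and luminal regulators of the mammary gland were examined as a set of 9 genes, *Esr1*, *Pgr*, *Prlr*, *Foxa1*, *Gata3*, *Elf5*, *Stat5a*, *Stat5b* and *Tnfsf11*. They were taken by gene symbol as steroid and prolactin receptors, luminal and alveolar transcription factors and a hormone-induced ligand, and all 9 were among the 15280 genes of the RNA-Seq table. The table covers 6 libraries, from a mammary tumor (T) and a normal mammary gland lying next to it (M) in each of 3 BK5.ATF3 females, named by mouse as M11035, M11640, M9232, T11035, T11640 and T9232. The mice carried *ATF3* under the bovine keratin 5 promoter, which is active in basal epithelium, and each had reared 1 litter. The donors were tumor-bearing adults, in a line whose tumors show up between 6 and 12 months, and tissue was collected at a tumor length of 1.5 cm. Both tissues were transgenic, so the comparison asks how tumors differ from adjacent glands and has no wild-type arm.

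In the mammary epithelium, estrogen acts on hormone-sensing luminal cells through the receptor encoded by *Esr1*, and one product of that signal is the progesterone receptor, encoded by *Pgr*. Progesterone induces RANK ligand (*Tnfsf11*), which passes the signal to neighboring cells that lack the steroid receptors, while prolactin acts through its receptor (*Prlr*), the kinase JAK2 and STAT5 to drive alveolar growth and milk production. *Gata3* and *Foxa1* encode transcription factors of the luminal lineage, and *Elf5* encodes one of the alveolar lineage. Several of these genes are also active outside the epithelium, for example *Stat5a* and *Stat5b* in fat and in lymphocytes, and *Gata3* in T cells and in skin.

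The libraries held 4750989 to 7806908 fragments on genes, and expression is given in CPM, a count of fragments scaled by the effective library size that edgeR calculates. A floor of 3 fragments, which covers counting error only, lay between 0.393 and 0.610 CPM, and the lowest member value in any library was 4 fragments. The tissues differed in makeup. All 10 adipocyte markers (summed level 6450 to 12000 CPM in glands and 263 to 417 CPM in tumors), all 7 T cell markers (173 to 443 and 27.0 to 42.7 CPM) and all 6 B cell markers (173 to 465 and 7.08 to 10.3 CPM) were called lower in tumors. *Lep*, *Cd79a* and *Pax5* were at or under the floor in every tumor. Of the epithelial markers, 6 of 9 were called higher in tumors and 0 lower (213 to 449 and 685 to 1020 CPM), as were all 6 basal markers (222 to 336 and 2430 to 2870 CPM) and all 9 measured squamous markers (6.71 to 9.75 and 2310 to 3860 CPM, with *Lor* at 0 in every gland). Gland M9232 stood apart in 9 milk protein genes, whose sum was 54100 CPM there against 3120 and 5780 CPM in M11035 and M11640. The part of these shifts in the changes given next was not tested, and in bulk tissue fewer cells expressing a gene and less of its RNA per cell cannot be told apart. *Atf3* averaged 11.7 ± 9.58 CPM (SD, n = 3) in glands and 17 ± 3.18 CPM in tumors and was not called (log2 fold change 0.80, limma adjusted p = 0.223). Whether transgene reads were counted on *Atf3* is not given in the sources used here.

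Of the 9 genes, 7 were lower in tumors, 1 was higher and 1 was not called. A gene was called differentially expressed at a Benjamini-Hochberg adjusted p of at most 0.05 and a fold change of at least 2 in limma on log2(CPM + 0.5). By that rule, 13.7% of all genes were lower and 14.5% higher in tumors, 28.2% in either direction. The 7 genes that fell were *Esr1*, *Pgr*, *Prlr*, *Foxa1*, *Elf5*, *Stat5a* and *Stat5b*, and in each of them all 3 tumors lay below all 3 glands, an arrangement found in 26.3% of all genes. *Tnfsf11* rose, with all 3 tumors above all 3 glands, as in 27.6% of all genes, and in 54% of all genes the groups lay apart one way or the other. *Gata3* was the gene that was not called, and its tumors and glands overlapped. The median log2 fold change of the 9 genes was -1.88, where the median of all genes was 0.00.

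**Figure D1:**
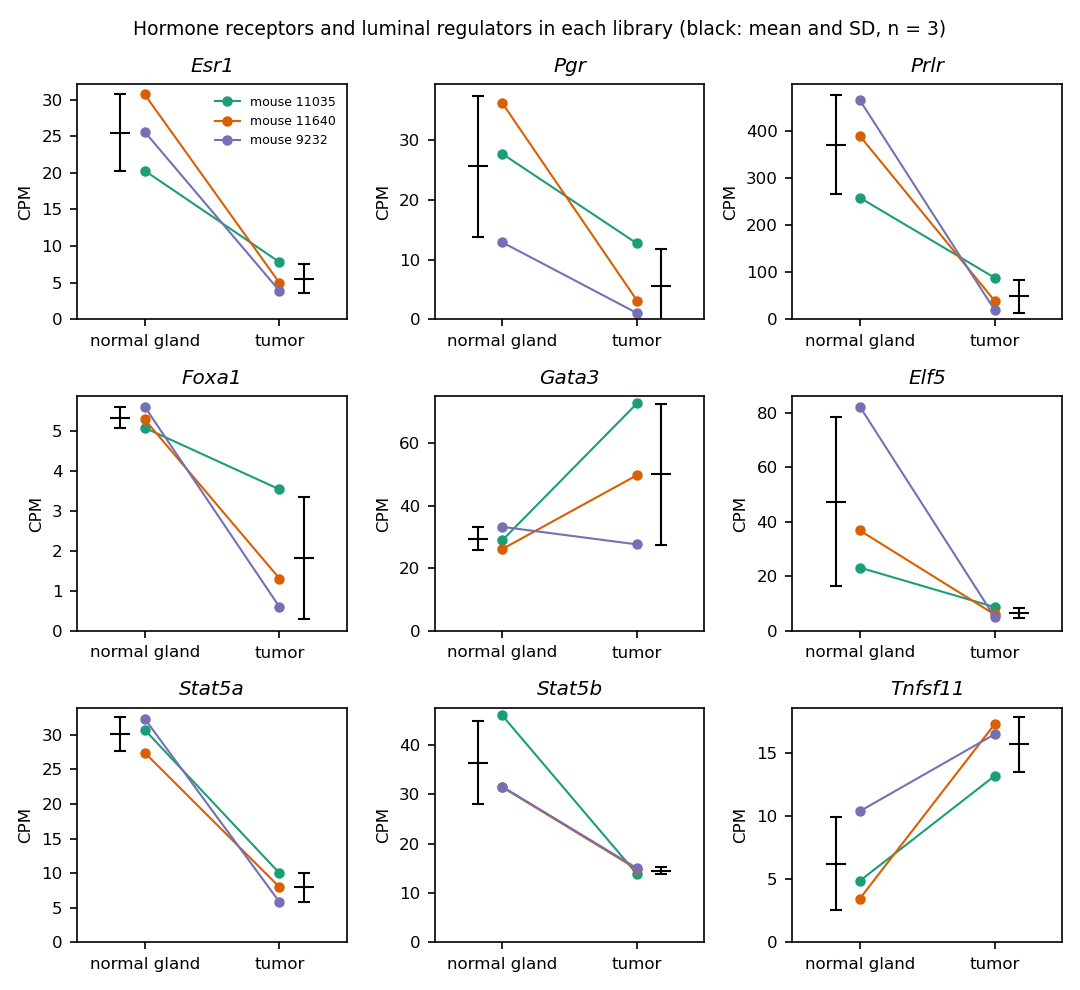
Expression (CPM, linear axis from 0) of the 9 genes in normal gland and tumor, with a colored line joining the libraries of each mouse and black bars for the mean and SD of 3 libraries (the lower bar of *Pgr* in tumors ends at the axis, since its SD exceeds its mean). The lines of 7 genes descend in all 3 mice, those of *Tnfsf11* ascend in all 3, and those of *Gata3* cross, with T9232 at 27.6 CPM inside the range of the glands.

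The steroid receptors were both lower in tumors. *Esr1* (mm9 chromosome 10, 5340927 to 5734948), which encodes estrogen receptor alpha, measured 20.3, 30.7 and 25.6 CPM in glands M11035, M11640 and M9232 and 7.82, 4.98 and 3.90 CPM in the tumors of the same mice. The groups were far apart, and the highest tumor was below the lowest gland by more than the range of the tumors. The mean went from 25.5 ± 5.20 CPM (SD, n = 3) to 5.56 ± 2.02 CPM, a 4.59-fold difference, and *Esr1* fell by 2.13 on the log2 scale (standard error, SE, 0.28, 95% interval -2.78 to -1.49, limma adjusted p = 0.000484). The fall held with any library left out, at log2 fold changes between -2.39 and -1.93.

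*Pgr* (chromosome 9, 8900419 to 8965425), which encodes the progesterone receptor, measured 27.7, 36.2 and 12.9 CPM in the glands and 12.7, 3.15 and 1.05 CPM in the tumors. The groups only just failed to overlap, since tumor T11035 lay barely under gland M9232, and the value of 1.05 CPM in T9232 rests on 7 fragments. The mean was 25.6 ± 11.8 CPM in glands and 5.62 ± 6.18 CPM in tumors, and the log2 fold change of -2.51 (SE 0.71, 95% interval -4.12 to -0.90) passed the test with an adjusted p of 0.0209 in limma. Within each mouse *Pgr* was lower in the tumor, with log2 differences of -1.10 in the mouse of T11035 and of -3.33 and -3.11 in those of T11640 and T9232. The call depended on single libraries. It was lost without M11035 (-2.40), M11640 (-2.21), T11640 (-2.41) or T9232 (-1.79), with adjusted p values between 0.0529 and 0.0747 in limma.

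The prolactin receptor and the STAT5 factors that act after it were lower as well. *Prlr* (chromosome 15, 10106993 to 10303504), per kb of exon the most abundant of the 9 genes in glands, measured 258, 389 and 465 CPM there and 88.4, 39.6 and 20.1 CPM in the tumors. Its groups were widely separated, and gland M9232 was the highest library while the tumor of the same mouse was the lowest. The mean went from 370 ± 105 CPM to 49.3 ± 35.2 CPM, a 7.51-fold difference and the largest of the 9 on either scale, with a log2 fold change of -3.11 (SE 0.47, 95% interval -4.17 to -2.04, limma adjusted p = 0.000988). Without gland M9232 the log2 fold change was -2.92.

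*Stat5a* (chromosome 11, 100720665 to 100746483) encodes the STAT5 protein that the mammary gland needs most for alveolar development, and *Stat5b* (chromosome 11, 100642045 to 100712038) is its neighbor and close relative. *Stat5a* measured 30.7, 27.4 and 32.3 CPM in the glands and 10, 7.99 and 5.84 CPM in the tumors. Little spread was seen within either tissue, and the mean went from 30.1 ± 2.48 CPM to 7.96 ± 2.10 CPM (log2 fold change -1.88, SE 0.23, limma adjusted p = 0.000294). *Stat5b* measured 45.9, 31.4 and 31.5 CPM in the glands and 13.8, 14.8 and 15 CPM in the tumors. The 3 tumors were nearly alike, at a ratio of highest to lowest of 1.09, and the log2 fold change was -1.27 (SE 0.20, limma adjusted p = 0.00127). Both calls held with any library left out, at -2.06 to -1.69 for *Stat5a* and -1.36 to -1.09 for *Stat5b*. Transcripts of this pair were 90.2% identical over 2355 bp, so how fragments were divided between them is uncertain. Exons of *Stat5a* also share 72 bp with *Stat3*, and no use of strand in counting is given in the sources used here. Per kb of exon, *Stat5a* stood to *Stat5b* at 0.519, 0.678 and 0.797 in the glands and at 0.567, 0.419 and 0.303 in the tumors, which overlap.

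Of the luminal transcription factors, *Foxa1* was lower in tumors and *Gata3* was not. *Foxa1* (chromosome 12, 58641618 to 58647108) encodes a forkhead factor that opens chromatin for the estrogen receptor. It was weakly expressed, at 5.08, 5.29 and 5.61 CPM in the glands and 3.54, 1.31 and 0.599 CPM in the tumors. The glands were almost equal, whereas the highest tumor had 5.90 times the level of the lowest, where 4 fragments were counted. *Foxa1* fell by 1.54 on the log2 scale (SE 0.45, 95% interval -2.56 to -0.52, limma adjusted p = 0.0242). That call was lost without M11640 (-1.54), M9232 (-1.50), T11640 (-1.47) or T9232 (-1.11), with adjusted p values between 0.0529 and 0.0817 in limma.

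*Gata3* (chromosome 2, 9778705 to 9811661), which maintains luminal identity, measured 28.9, 26.1 and 33.2 CPM in the glands and 72.6, 49.7 and 27.6 CPM in the tumors. Tumors T11035 and T11640 lay above every gland, and T9232 lay among the glands. The mean was 29.4 ± 3.6 CPM in glands and 49.9 ± 22.5 CPM in tumors, and the log2 fold change of 0.66 (SE 0.32, 95% interval -0.07 to 1.38, limma adjusted p = 0.131) did not pass the threshold. Within the mice, the tumor differed from the gland by 1.31, 0.92 and -0.27 on the log2 scale. Tumor T9232 decided the call, since without it the log2 fold change was 1.02 and the adjusted p was 0.0134 in limma.

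*Elf5* (chromosome 2, 103251845 to 103291146), an ETS factor that drives alveolar differentiation together with prolactin signaling, measured 23.2, 36.8 and 82.2 CPM in the glands and 8.75, 6.03 and 5.09 CPM in the tumors. The glands were spread over 3.55-fold, with M9232 highest, and every tumor was below every gland. The mean went from 47.4 ± 30.9 CPM to 6.62 ± 1.90 CPM, a 7.16-fold difference (log2 fold change -2.59, SE 0.42, 95% interval -3.55 to -1.62, limma adjusted p = 0.00154). Without M9232, the gland rich in milk protein transcripts, *Elf5* was still called, with a log2 fold change of -2.09.

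The ligand *Tnfsf11* (chromosome 14, 78677252 to 78707850), RANKL, went the other way. It measured 4.88, 3.47 and 10.4 CPM in the glands and 13.2, 17.3 and 16.5 CPM in the tumors. The tumors were close together and all above the glands, of which M9232 came nearest to them. The mean went from 6.25 ± 3.66 CPM to 15.7 ± 2.16 CPM, a 2.51-fold difference (log2 fold change 1.39, SE 0.36, 95% interval 0.57 to 2.20, limma adjusted p = 0.0145), and the tumor was higher in 3 of 3 mice. The call was lost without T11640 (1.31, adjusted p = 0.063 in limma) or T9232 (1.34, adjusted p = 0.0548), and without M9232 the log2 fold change was 1.80. RANKL is also made by activated T cells and stromal cells, and the summed T cell markers were lower in every tumor than in any gland. Of the fibroblast markers, 2 of 5 were called higher and 0 lower (645 to 2410 CPM in glands and 5520 to 5900 CPM in tumors). The 2 were the collagen genes *Col1a1* and *Col1a2*, and the sum of the other 3 overlapped between tissues (466 to 1880 and 956 to 1430 CPM). Whether T cells or fibroblasts had a part in the *Tnfsf11* levels was not tested.

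**Figure D2:**
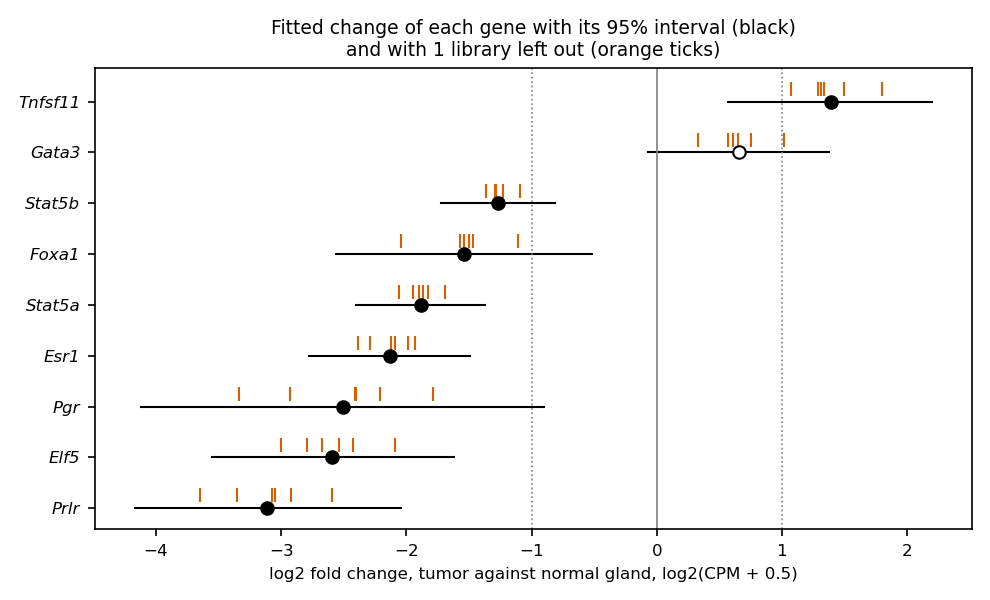
Log2 fold change of each gene, tumor against normal gland, fitted by limma on log2(CPM + 0.5), with its 95% interval as a black line. Filled points were called and the open point (*Gata3*) was not, orange ticks give the value with 1 library left out, and dotted lines mark a fold change of 2. The intervals of *Prlr*, *Elf5*, *Esr1* and *Stat5a* lie wholly below -1, and those of *Pgr*, *Foxa1* and *Stat5b* extend above it.

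The signaling partners of RANKL moved unequally. *Tnfrsf11b*, which encodes the decoy receptor osteoprotegerin, measured 1.42, 1.16 and 4.92 CPM in the glands and 25.5, 39.3 and 21.4 CPM in the tumors. It was thus higher in every tumor, by a log2 fold change of 3.45 (SE 0.45, limma adjusted p = 0.000464), which held with any library left out (3.13 to 3.99). Its ratio to *Tnfsf11*, per kb of exon, was 0.231, 0.264 and 0.376 in the glands and 1.53, 1.80 and 1.03 in the tumors. The decoy receptor transcript was therefore below that of the ligand in each gland, above it in T11035 and T11640 and about level with it in T9232. *Tnfrsf11a*, the gene of the signaling receptor RANK, averaged 78.6 ± 33.7 CPM in glands and 45.8 ± 6.65 CPM in tumors and was not called (log2 fold change -0.69, limma adjusted p = 0.1). It was called only without M11035 (-1.03, adjusted p = 0.00806 in limma). Of all 13 measured genes of RANK signaling, 1 was higher and 1 lower (14.5% and 13.7% of all genes). The lower one was the adaptor *Traf5* (log2 fold change -1.41), and the median log2 fold change of the list was -0.11.

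The tumors were not alike in the level that was left. Tumor T11035 was the highest and T9232 the lowest of the tumors in 7 of the 9 genes, the exceptions being *Stat5b* and *Tnfsf11*. The same order was found in 20.1% of all genes, the reverse order was found in 23.2%, and the pattern was noticed after the values were seen. The highest tumor had 12.1 times the *Pgr* level of the lowest, 4.40 times its *Prlr* level and 2.63 times its *Gata3* level, but only 1.72 times its *Elf5* and *Stat5a* levels. Milk protein genes had this order in 7 of 9 cases and epithelial markers in 0 of 9, of which 4 had the reverse order. In 6 of the 7 genes that fell, all but *Stat5b*, the mouse of T11035 had the tumor nearest to its own gland. Its log2 differences were -1.32 for *Esr1*, -1.54 for *Prlr* and -0.47 for *Foxa1*, against -2.57, -4.50 and -2.47 in the mouse of T9232. M11035 was also the lowest gland for *Esr1*, *Prlr*, *Foxa1* and *Elf5*, though not for *Pgr* and *Stat5a*. The share of all genes with this nearness was not counted.

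**Figure D3:**
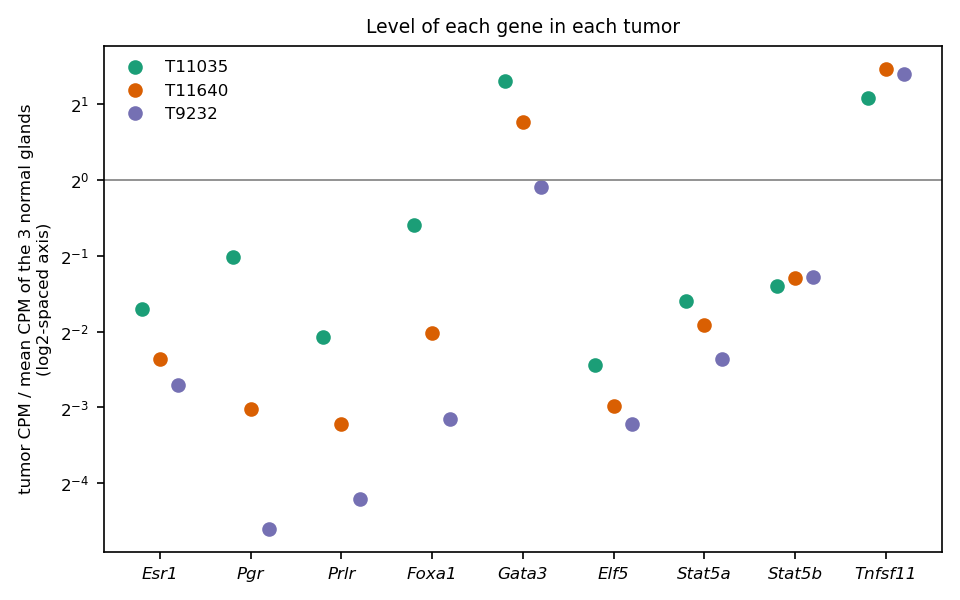
Level of each gene in the 3 tumors as a ratio to the mean CPM of the 3 normal glands, on a log2-spaced axis with a line at a ratio of 1. Tumor T11035 is the highest and T9232 the lowest in all but *Stat5b* and *Tnfsf11*, and the spread is widest for *Pgr*, at 12.1-fold.

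Among the glands, *Prlr*, *Elf5* and *Foxa1* increased in the order of the milk protein sum, with M9232 the highest, whereas *Pgr* was lowest in M9232. *Foxa1* did so only from 5.08 to 5.61 CPM, and the share of all genes in this order was not counted. *Foxa1* and *Stat5a* differed least between glands, with ratios of highest to lowest of 1.10 and 1.18, against 3.55 for *Elf5*, 3.00 for *Tnfsf11* and 2.81 for *Pgr*. With M9232 left out, the log2 fold changes of *Esr1*, *Pgr*, *Stat5a*, *Stat5b* and *Gata3* were -2.12, -2.93, -1.83, -1.36 and 0.75. All 9 milk protein genes were measured, of which 8 were lower in tumors and 0 higher (13.7% and 14.5% of all genes). Their median log2 fold change was -4.42. Their sums were 848, 544 and 214 CPM in T11035, T11640 and T9232, and *Lalba* was at 0 and *Wap* no higher than the floor in each tumor. Without tumor T11640, 5 of these 9 genes were called. In edgeR with TMM scaling all 9 were called, and in DESeq2 all 5 that received an adjusted p. *Wap* was not called with a pseudocount of 1 (-3.70) or in limma without trend, and *Csn1s1* was not called in edgeR with the mouse as a block (-3.34, edgeR adjusted p = 0.0861).

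Because tumors held more epithelial transcripts than glands, the 9 genes were also set against the mean log2 level of *Cdh1* (E-cadherin) and *Epcam* in the same library. *Cdh1* was higher in tumors (log2 fold change 2.33, limma adjusted p = 0.000249) and *Epcam* was not called (0.56, adjusted p = 0.124). Since this reference was itself higher in tumors, the ratio lowers every gene there, and for the 7 genes that fell it is given as a description only. Their differences in mean log2 ratio lay between -2.71 for *Stat5b* and -4.55 for *Prlr*, and with *Epcam* alone as the reference between -1.82 and -3.66. An exact two-sided permutation test of 3 against 3 libraries cannot go below p = 0.1. *Gata3* had log2 ratios of -1.37, -1.74 and -2.26 in the glands and -1.76, -2.52 and -3.45 in the tumors, which overlap (difference -0.79, exact permutation p = 0.2). *Tnfsf11* had log2 ratios of -3.82, -4.48 and -3.89 in the glands and -4.17, -4.02 and -4.18 in the tumors, which also overlap (difference -0.06, exact permutation p = 0.9). With *Krt8* and *Krt18* as the reference the differences were much the same, at -0.85 for *Gata3* and -0.12 for *Tnfsf11*. Both moved when a single gene was the reference. With *Cdh1* alone they were -1.67 for *Gata3* and -0.94 for *Tnfsf11*, and with *Epcam* alone 0.10 and 0.83. The difference of *Tnfsf11* also turned sign with a pseudocount of 0.1 (0.01) and without M11035 (0.07) or M9232 (0.03).

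**Figure D4:**
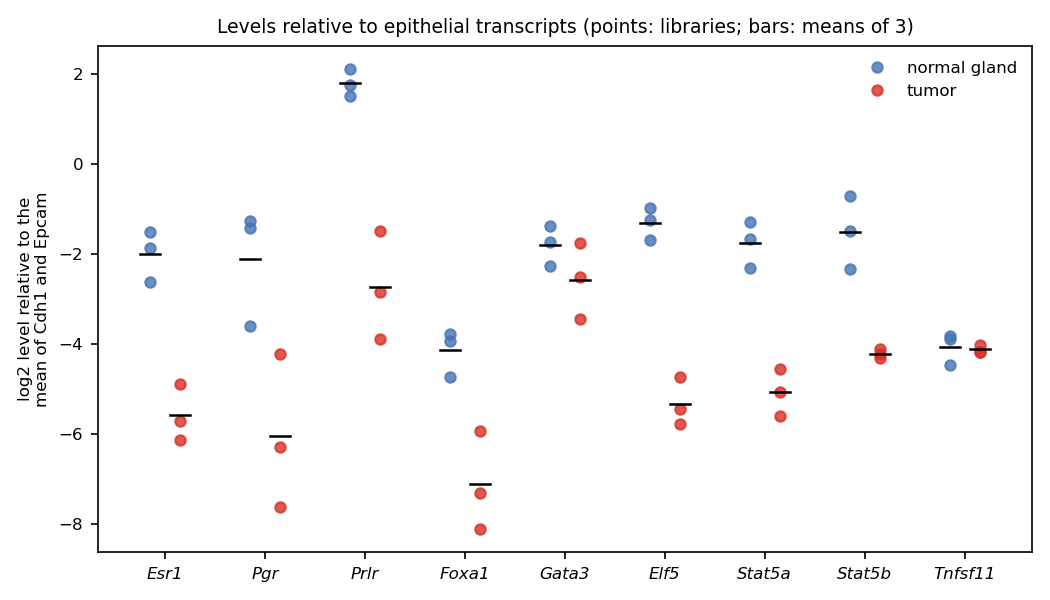
Log2 level of each gene minus the mean log2 level of *Cdh1* and *Epcam* in the same library, for normal glands (blue) and tumors (red), with bars for the means of 3 libraries. The reference is itself higher in tumors, and blue and red points overlap for *Gata3* and *Tnfsf11* and are apart for the other 7 genes.

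The order of the genes by level changed between the tissues. Per kb of exon, *Prlr* led in glands with 23.9 ± 6.76 CPM per kb (SD, n = 3), followed by *Elf5* (8.07), *Gata3* (7.39), *Stat5b* (6.55), *Pgr* (5.35), *Stat5a* (4.22), *Tnfsf11* (2.79), *Esr1* (1.87) and *Foxa1* (1.67). *Prlr* alone was separated from the next gene, and the ranges of every later pair of neighbors overlapped. In tumors *Gata3* (12.6 ± 5.66 CPM per kb) and *Tnfsf11* (7.01 ± 0.967) came first, ahead of *Prlr* (3.19), *Stat5b* (2.62), *Pgr* (1.18), *Elf5* (1.13), *Stat5a* (1.12), *Foxa1* (0.569) and *Esr1* (0.407). There, *Tnfsf11* and *Prlr* were the neighbors whose ranges did not meet. *Esr1*, whose annotated exons span 13.68 kb, was last or next to last in both orders.

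Other steroid receptors fell together with *Esr1* and *Pgr*, while no coregulator or chaperone of the list was called. Of 13 measured genes of this list, 3 were lower and 0 higher (13.7% and 14.5% of all genes). The median log2 fold change of the list was -0.56. Among those that fell were the mineralocorticoid receptor *Nr3c2* (18.9 ± 3.54 CPM in glands and 3.03 ± 0.765 CPM in tumors, log2 fold change -2.47) and the glucocorticoid receptor *Nr3c1* (283 ± 30.2 and 131 ± 10.9 CPM, -1.11). Their adjusted p values in limma were 0.00012 and 0.000397. The coactivators *Ncoa1*, *Ncoa2* and *Ncoa3* had log2 fold changes of -0.76, -0.08 and -0.39, and none was called. *Ncoa1* missed only the 2-fold line (limma adjusted p = 0.0042). *Pgrmc2* stood at -0.98 and crossed the 2-fold line with DESeq2 (-1.01) and without M9232 (-1.14), and the chaperone *Fkbp5*, at -0.76, was called without M11640 (-1.21, limma adjusted p = 0.0022).

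Genes known as targets of estrogen or progesterone did not follow their receptors as a group. Of 10 measured, 3 were higher, 1 was lower and 6 were not called, where 14.5% of all genes were higher and 13.7% lower. The median log2 fold change of the list was 0.09. *Ccnd1*, the gene of cyclin D1, was at 76.4, 56.8 and 70.3 CPM in the glands and at 424, 389 and 465 CPM in the tumors (log2 fold change 2.65, limma adjusted p = 7.56e-06). *Areg*, the EGF family ligand amphiregulin, was at 13.6, 0.496 and 2.60 CPM in the glands and at 25.1, 25.4 and 25.8 CPM in the tumors. Its log2 fold change of 2.88 passed the test (limma adjusted p = 0.0178), but not in DESeq2 (adjusted p = 0.0997) or without T11035, T11640 or T9232 (2.89, 2.88 and 2.87, with adjusted p values up to 0.0611 in limma). *Igfbp4* rose (1.32) and *Cxcl12* fell (-1.98), whereas *Greb1*, a direct estrogen receptor target, averaged 2.56 ± 2.34 CPM in glands and 2.67 ± 2.37 CPM in tumors and was not called (0.20). Many of these genes also answer to other pathways.

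Of 14 measured genes around the prolactin receptor, JAK2 and STAT5, 1 was higher and 2 were lower (14.5% and 13.7% of all genes). Their median log2 fold change was -0.20. *Jak2* itself was at 186, 165 and 194 CPM in the glands and 255, 250 and 261 CPM in the tumors, with a log2 fold change of 0.49, under the 2-fold line. The growth hormone receptor *Ghr*, a relative of *Prlr* that also signals through JAK2, was at 569 ± 226 CPM in glands and 93.2 ± 8.12 CPM in tumors (log2 fold change -2.53, limma adjusted p = 0.000125). The adaptor *Irs1* was lower by a log2 fold change of -1.14, a call lost without M11640 (-0.83), T11640 (-1.17) or T9232 (-0.98). *Ghr* and *Irs1* are also abundant in fat, and the adipocyte markers fell in the same tumors. Among feedback inhibitors induced by STAT factors, *Socs3* was higher, at 2.38 ± 0.520 CPM in glands and 15.1 ± 2.88 CPM in tumors (log2 fold change 2.44, limma adjusted p = 0.000142). *Cish* and *Socs2*, classical STAT5 targets, had log2 fold changes of -0.39 and -0.91 and were not called. *Socs2* missed only the 2-fold line, with every tumor below every gland (limma adjusted p = 0.00502). The groups of *Cish* overlapped (limma adjusted p = 0.23).

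Transcription factors that work beside *Gata3*, *Foxa1* and *Elf5* were mostly higher in tumors. Of 15 measured, 8 were higher and 1 was lower (14.5% and 13.7% of all genes), and the median log2 fold change was 1.16. *Tbx3* (5.54 ± 1.96 CPM in glands and 56.2 ± 4.43 CPM in tumors), the grainyhead factor *Grhl1* (24.4 ± 3.40 and 154 ± 23.4 CPM) and *Tfap2a* (15.9 ± 3.31 and 98.1 ± 5.12 CPM) had log2 fold changes of 3.28, 2.63 and 2.60. The others that rose were *Tfap2c* (1.90), *Elf3* (1.76), *Grhl2* (1.46), *Cebpb* (1.34) and *Runx1* (1.16). *Nfib* was the exception, at 443 ± 119 and 165 ± 80.8 CPM (log2 fold change -1.49, limma adjusted p = 0.00772), and like *Foxa1* and *Gata3* it was highest in T11035 and lowest in T9232 among the tumors. Grainyhead and AP-2 factors also act in the epidermis, and the squamous markers were higher in the same tumors.

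Close relatives of the 9 genes went in both directions. Of 18 measured paralogs, 2 were higher and 6 lower (14.5% and 13.7% of all genes), at a median log2 fold change of -0.12. *Gata2* was at 2.44, 4.46 and 3.01 CPM in the glands and at 46.7, 51.2 and 81.7 CPM in the tumors (log2 fold change 3.98, limma adjusted p = 1.9e-05), so it was above every gland in all 3 tumors, and its difference from *Gata3* was not tested. *Gata6* passed the test (-1.08, limma adjusted p = 0.044) although its groups overlapped. Its call was lost without M11640 (-0.80), M9232 (-1.03), T11035 (-0.88) or T9232 (-1.04), and with all libraries at a pseudocount of 1 (-0.99), without trend (adjusted p = 0.0521 in limma) and after quantile normalization (adjusted p = 0.0544 in limma). *Stat4*, which is active in T cells, was lower (-2.36) along with *Stat5a* and *Stat5b*, whereas *Stat3* and *Stat6* had log2 fold changes of 0.22 and 0.27 and were not called. *Elf5* fell while its relative *Elf3* rose, and *Elf1*, *Elf2* and *Elf4* stood at -0.20, -0.04 and 0.01.

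**Figure D5:**
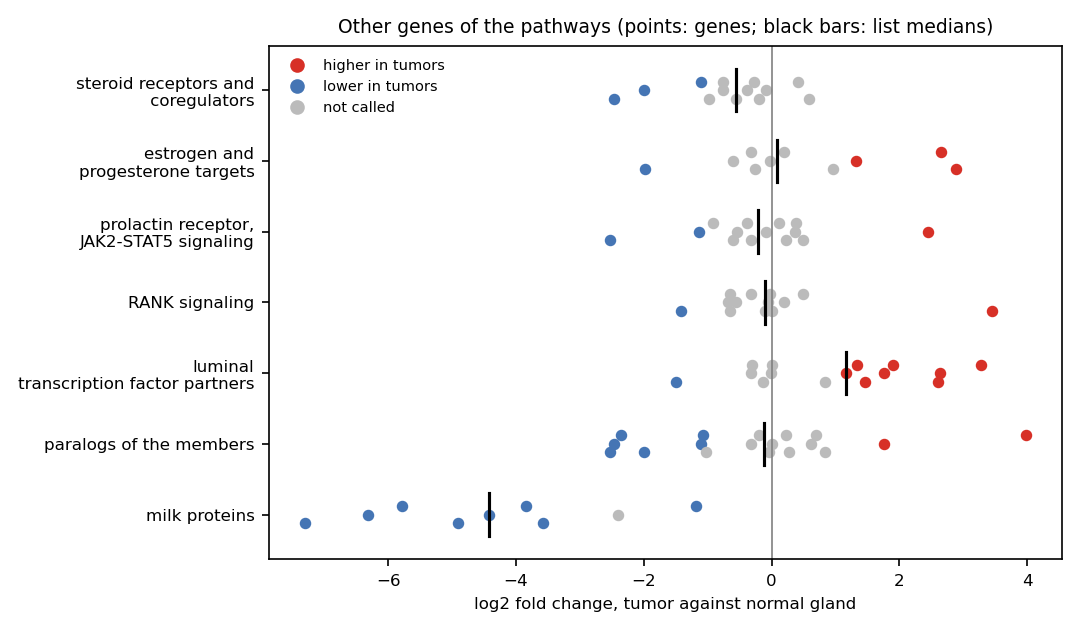
Log2 fold change, tumor against normal gland, of each measured gene in the lists around the 9 genes, with red for genes called higher, blue for genes called lower, gray for genes not called and black bars for list medians. The luminal transcription factor partners center at 1.16 and the milk proteins at -4.42, and the other medians lie between -0.56 and 0.09.

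Cell type markers did not all follow the receptors. Of the hormone-sensing luminal markers, 5 of 8 were higher in tumors and 0 lower (81.7 to 123 CPM in glands and 238 to 355 CPM in tumors), and without T9232 3 of them were called. Of the 5, *Krt8* (log2 fold change 1.74) and *Krt18* (1.27) are shared by all luminal cells, and *Krt19* (1.19) is also among the epithelial markers. The others called were *Tbx3* (3.28) and *Areg* (2.88), while *Prom1* (0.29), *Cited1* (-0.60) and *Wnt4* (0.96) were not called. The alveolar progenitor markers were divided, with 2 of 7 higher (*Elf3*, 1.76, and *Aldh1a3*, 1.37) and 3 lower (*Ltf*, -2.97, *Lcn2*, -1.79, and *Kit*, -1.28). The groups of *Lcn2* overlapped, and its call was lost with the mouse as a block (adjusted p = 0.0719 in limma), without trend (0.0809) and without any 1 library but M11035 (-2.14 to -1.14). Of the contractile markers, 1 of 7 was higher and 3 lower (354 to 749 CPM in glands and 214 to 264 CPM in tumors). Counts for the remaining lists were 2 of 3 lymph node stroma markers lower, 3 of 6 endothelial markers lower and 1 of 5 macrophage markers higher. The endothelial count fell to 1 without M11640 or without T11035. With all libraries kept, *Kdr* was lost at a pseudocount of 1, and *Vwf* in edgeR with TMM scaling and in DESeq2. Over all genes, 14.5% were called higher and 13.7% lower.

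Across the 6 libraries, which pair by mouse and split by tissue, the 7 genes that fell had Pearson r between 0.719 and 0.985 with each other. These correlations of log2(CPM + 0.5) are descriptions, and libraries of a tissue or a mouse share that tissue or mouse. The highest r was that of *Esr1* with *Prlr* and the lowest that of *Pgr* with *Elf5*, while *Gata3* had an r of -0.075 with *Foxa1*. Outside the set, in a search of 11393 genes (mean 5 CPM or more), the patterns most like *Elf5* were those of *Foxi1* (r = 0.9972, 15.8 CPM in glands and 0.697 CPM in tumors) and *Ogfrl1* (0.9939). For *Esr1* they were *Kcnt2* (0.9976) and *Echdc2* (0.9970), for *Pgr* *Dalrd3* (0.9979) and *Syde2* (0.9917), and for *Prlr* *Rbks* (0.9963) and *Fbxl4* (0.9932). *Foxa1* was matched by *Spg11* (0.9979) and 5530601H04Rik (0.9924), *Gata3* by *Ccar1* (0.9938) and *Cenpc1* (0.9930), and *Tnfsf11* by *Fam59a* (0.9954) and *Ccl12* (0.9934). *Stat5a* was matched by *Bod1l* (0.9984) and 1300002E11Rik (0.9983), and *Stat5b* by *Tnrc6b* (0.9986) and *Mef2c* (0.9978). Such matches are common with 6 libraries, since 612 genes exceeded r = 0.95 for *Stat5a*, against 48 for *Gata3*. They also say nothing of the size of a change. *Spg11* averaged 86.6 CPM in glands and 78.0 CPM in tumors, where *Foxa1* averaged 5.33 and 1.82 CPM.

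The promoters of the 9 genes were searched on both strands for 4 motifs. All 9 genes matched RefSeq start sites (GRCm38.p6), with 15 windows from 250 bases before to 50 bases after a start. The shares of all promoters given below count windows, and a gene could have several. The STAT5 motif TTCNNNGAA was found in windows of *Esr1* and *Prlr*, and in 8.30% of all 32851 promoters. The forkhead motif TGTTTAC was found in those of *Prlr* and *Foxa1*, and in 3.65% of all promoters. The matches are shown on the gene's strand, 5′ to 3′, with the motif in capitals, and the runs printed lie on the plus strand of chr10:4709960-4709988 and chr15:10223786-10223814 and, for the forkhead motif, chr15:10223681-10223707 and the minus strand of chr12:57546236-57546262.
Esr1, STAT5 motif: ctggagtttcTTCTAGGAAtgctgattct
Prlr, STAT5 motif: gcaaaatgagTTCTAGGAAtaagggatat
Prlr, forkhead motif: tgcatcaaagTGTTTACtcgacccaga
Foxa1, forkhead motif (reverse complement): atactgctttGTAAACAaagtgagggc
In *Foxa1* the letters TGTTTAC lie on the strand opposite to the gene, so the capitals are their reverse complement. The motifs begin 188, 110, 215 and 141 bases before the start sites, and no match overlaps another. The core of the estrogen response element, AGGTCA, was found in windows of *Stat5a* and *Stat5b* (16.3% of all promoters), and the GATA motif AGATAA in those of 0 of the 9 genes (11.2% of all promoters). A match is a run of letters and not evidence of binding, and these libraries measure no binding.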

How the data were processed

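RNA was extracted with Trizol and libraries were made with the Ovation RNA-Seq System V2. Per the labels and the paper's methods, the authors aligned read pairs to mm9 with TopHat2 2.0.3, counted fragments per RefSeq gene with HTSeq 0.5.3p9, removed genes with fewer than 10 fragments in total and used edgeR 3.6.1. The authors deposited a normalized signal per gene, CPM on edgeR's effective library size, and 0 per-sample columns were left out. In every library 100% of values were whole multiples of 1 step (tolerance 0.01), so fragments were recovered. Column sums differed, and the unit was therefore recorded as a signal and not as CPM, which changed no test.

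Tumors and glands were compared in limma 3.58.1 (R 4.3.3), after adding 0.5 to each value and taking log2, with eBayes trend, no block, two-sided and with Benjamini-Hochberg adjustment over 15280 genes. edgeR 4.0.16 and DESeq2 1.42.0 on recovered fragments were alternatives, with other pseudocounts, filters and scalings. References of *Cdh1* or *Epcam* alone, and fibroblast markers without collagens, were chosen after seeing the data. Methods were tested on simulated data. Libraries of a tissue were not copies (lowest chi-square per degree of freedom 13). The mouse pairs the samples, and deviations from group means correlated with r = 0.107 (T11035), 0.151 (T11640) and 0.0168 (T9232). Between different mice r ranged from -0.168 to 0.0405, so the value of mouse 9232 did not stand out.

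The 9 genes and the lists were chosen with earlier results of these data known. Beside the 9 genes, the text names list members, the 2 genes most like each of the 9 (mean of at least 5 CPM), *Krt8*, *Krt18*, *Cdh1*, *Epcam* and *Atf3*. Values of some list members are not reported here, although the list counts and medians include them. Lengths and positions are from GENCODE vM1 (mm9), and identities from BLAST 2.17.0. A length joins all annotated exons of a gene, whereas fragments were counted on RefSeq genes, so levels per kb are approximate. The 6 libraries come from 3 animals per tissue, so p-values measure the spread between mice.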

Additional observations from a re-analysis of the deposited data

How the results depend on the processing

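Over 18 alternative settings, *Esr1*, *Prlr*, *Elf5*, *Stat5a* and *Stat5b* kept their direction and their call, and no fold change of the 9 genes turned sign. The other pseudocounts, filters, scalings and tools changed no call of the 9 genes, and neither did the replicate block for the mouse (*Pgr* -2.51, adjusted p = 0.00438 in limma, and 4298 genes called in all against 4309). Calls changed when a library was left out, which leaves 2 libraries in a tissue. Log2 fold changes then ranged from -3.34 to -1.79 for *Pgr* and from -2.04 to -1.11 for *Foxa1*, each lost in 4 of 6 cases, from 1.07 to 1.80 for *Tnfsf11*, lost in 2, and from 0.33 to 1.02 for *Gata3*, gained in 1. With a library left out, the number of the 9 genes called lower ranged from 5 to 7 and called higher from 0 to 1, and that of milk protein genes called from 5 to 8 (9 with edgeR's TMM and with DESeq2 size factors). Relative to epithelial transcripts, *Tnfsf11* turned from -0.06 to 0.01 with a pseudocount of 0.1 and ranged from -0.27 to 0.07 with a library left out. With *Epcam* alone as the reference, chosen after seeing the data, *Tnfsf11* turned to 0.83 and *Gata3* from -0.79 to 0.10. The cause of these changes was not tested. The lowest fragment counts of the 9 genes were 4 for *Foxa1* and 7 for *Pgr*, both in T9232.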
